A study of Mus musculus with 4 samples.

Results

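The genes described here are those of prostaglandin and leukotriene synthesis and of the prostaglandin receptors of macrophages. They are the enzymes Pla2g4a, Ptgs1, Ptgs2, Ptges, Alox5, Alox5ap and Lta4h and the receptors Ptger2, Ptger4 and Ptgir. Members were found by their symbol in the annotation of the array, with every probe set that carries it. Of the 10 genes, 9 had a probe set, 15 in all, out of 18194 genes and 45101 probe sets on the array. No probe set carries the symbol of Ptgs1, the constitutive cyclooxygenase, in the annotation used here, and no value is given for it.

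RAW264.7, a transformed mouse macrophage line, was kept for 4 days in normoxia (NC), in normoxia with IL6 (NC+IL6), in hypoxia (HC) or in hypoxia with IL6 (HC+IL6). Hypoxia was 1% oxygen, and IL6 was given at 25 ng/ml. For normoxia, the sources used here give no oxygen level. Total RNA from each condition was hybridized to 1 Affymetrix array, so that 4 arrays of a single cell line carry all comparisons. No difference has a replicate check, no test was run, and precision is limited by this number of arrays.

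Eicosanoids are lipid signals made from arachidonic acid, which cytosolic phospholipase A2 releases from membranes. Cyclooxygenases turn it into prostaglandin H2, from which terminal synthases make prostaglandin E2 and its relatives. In the other branch, 5-lipoxygenase and its activating protein make leukotriene A4, which is converted to leukotriene B4 by a hydrolase or to leukotriene C4 by conjugation with glutathione. Macrophages are a major source of both families, and they carry receptors for prostaglandin E2 and prostacyclin that raise cyclic AMP.

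A deposited value is the log2 of a MAS5 signal, where MAS5 is the Affymetrix method that combines the short probes of a probe set, and every array had been scaled to a trimmed mean signal of 500. The background floor was set per array from 102 probe sets of genes that other tissues express, as their 95th percentile. On the log2 scale it stood at 6.65 in NC and 6.30 in NC+IL6, against 6.58 in HC and 6.15 in HC+IL6. A gene counted as higher or lower when its brighter array exceeded the floor and, once a dimmer signal had been raised to its own floor, the pair lay 2-fold or more apart. A fold against a raised signal is given as "at least". Each gene is represented by the probe set with its highest mean log2 signal, and levels of different genes are not compared. The pooled SD of the log2 ratio between probe sets of the same gene was 0.32 to 0.38 over the 4 comparisons, a measure of how probe sets disagree that leaves out the variation between cultures.

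The labels were checked with genes outside the pathway. All 12 macrophage markers lay above the floor on all 4 arrays, with a summed signal of 166356 to 178759, and 6 of the 40 measured markers of 8 other cell types lay above it on any array (Hdc, Itga2b, Pf4, S100a8, Kdr and Epcam). Of these, the platelet marker Pf4 was higher with IL6 by 2.2-fold in normoxia and 2.07-fold in hypoxia. The neutrophil marker S100a8 was highest in HC+IL6, 2.52-fold for HC+IL6 over NC+IL6 and 2.41-fold for HC+IL6 over HC, and was the only neutrophil marker of 6 measured above the floor on any array. The summed signal of the neutrophil markers was 162 and 186.7 in normoxia and 279.7 and 357.6 in hypoxia, and that of the platelet markers was 215.7 and 364.5 without IL6 and 450.9 and 586.1 with it. Both sums include markers under the floor, whose signals have no order. The log2 ratio of S100a8 for HC over NC was -0.06. Among the macrophage markers, Itgam was higher in both hypoxia comparisons (3.13-fold and 3.24-fold) and for HC+IL6 over HC (2.06-fold), Aif1 for HC over NC (2.28-fold) and NC+IL6 over NC (3.84-fold), and Mpeg1 was lower for HC+IL6 over HC (2.05-fold). The part of these markers in the results below was not tested. Of 14 HIF targets, 10 were higher for HC over NC and 8 for HC+IL6 over NC+IL6, where 3.71% and 3.13% of all genes measured were higher. Of 9 measured IL6 targets, 5 were higher for NC+IL6 over NC and 4 for HC+IL6 over HC. HIF targets were also higher with IL6, 7 in normoxia and 5 in hypoxia. In these IL6 comparisons, 3.43% of all genes measured were higher in normoxia and 2.41% in hypoxia. Between 38.22% and 46.17% of probe sets lay above the floor, with the most in HC+IL6. The ratio of 3' to 5' signal, a measure of RNA quality, was 0.87 to 0.93 for Gapdh. For actin it was 1.73 in HC and 1.62 in HC+IL6, above the 1.54 of NC and 1.41 of NC+IL6, and its part in the hypoxia ratios was not tested.

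Of the 9 measured members, Ptgs2 and Alox5 passed 2-fold in all 4 comparisons. Ptgs2, the inducible cyclooxygenase, was higher in hypoxia and higher with IL6. Alox5, the 5-lipoxygenase that opens leukotriene synthesis, was higher in hypoxia and lower with IL6. Ptgir, the prostacyclin receptor, was higher with IL6, and Pla2g4a, Ptger4, Alox5ap and Lta4h lay above the floor on all arrays and stayed under 2-fold in every comparison. Ptges and Ptger2 lay near or under the floor. A signal is that of a whole culture, so that fewer expressing cells and less RNA per cell cannot be told apart.

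**Figure D1:**
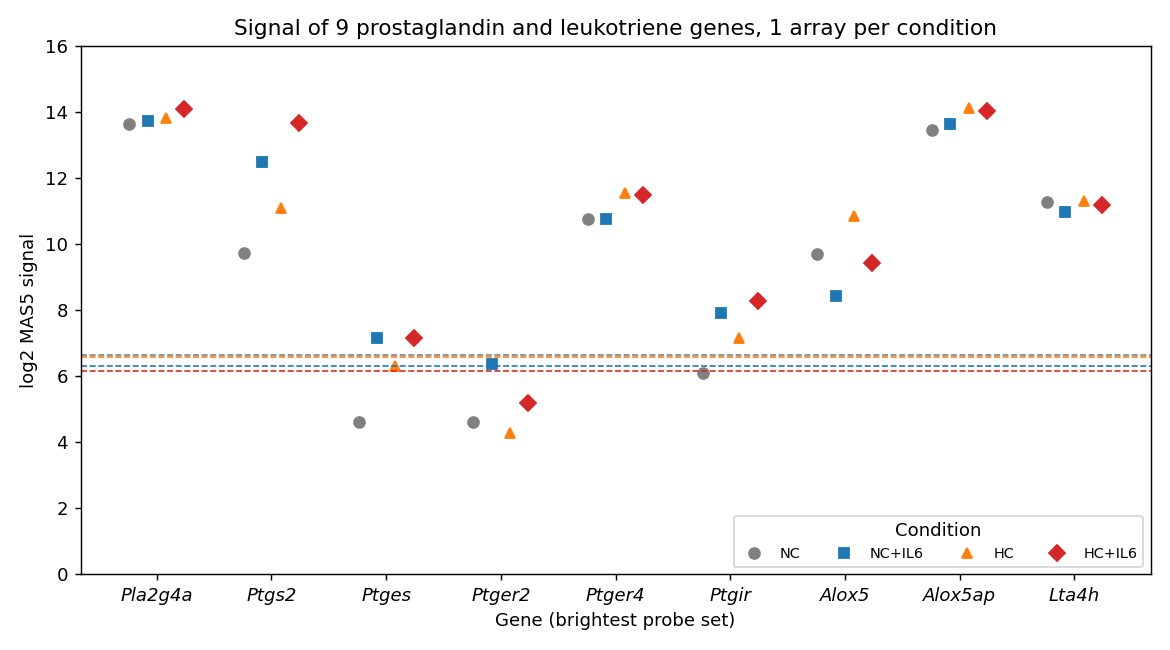
log2 MAS5 signal (vertical axis) of the brightest probe set of each of the 9 measured genes, with 1 point per array and the 4 background floors as dashed lines in the colours of the conditions. Ptgs2 runs from 9.72 in NC to 13.66 in HC+IL6, Alox5 from 8.42 in NC+IL6 to 10.85 in HC, and Ptges and Ptger2 lie near or under the floors.

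The promoters of Ptgs2 and Alox5 are shown because these were the members that passed 2-fold in all 4 comparisons. The sequences are those of RefSeq on the mouse build GRCm38.p6, where 9 of the 10 members had a window of 300 bases around the start of the gene, out of 32851 windows. Positions, and the words before and after, refer to this listed start only. Where transcription begins in these cells was not measured, so that a stretch after the listed start may still be promoter sequence. Capitals mark matches to the motifs searched, on either strand: GGGCGG (GC box), GCGTG and ACGTG (cores of the hypoxia response element), TTGCGCAA (C/EBP), TGACGTCA (cAMP response element), its shorter form TGACG, the E-box CACGTG, TTCNNNGAA (bound by STAT factors) and TATAAA of the core promoter. The first line is the stretch of 250 bases before the start of Ptgs2 (chr1:150099781-150100030, plus strand), the second 30 bases just after that start (chr1:150100032-150100061, plus strand), and the third the 250 bases before the start of Alox5 (chr6:116461179-116461428, minus strand).
Ptgs2 before the start: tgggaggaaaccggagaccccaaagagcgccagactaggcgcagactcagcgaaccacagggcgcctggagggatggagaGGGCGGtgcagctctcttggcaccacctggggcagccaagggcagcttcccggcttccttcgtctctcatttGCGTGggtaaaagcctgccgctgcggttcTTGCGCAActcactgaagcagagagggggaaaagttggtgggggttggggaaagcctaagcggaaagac
Ptgs2 after the start: gagtcaccactaCGTCACGTGgagtccgct
Alox5 before the start: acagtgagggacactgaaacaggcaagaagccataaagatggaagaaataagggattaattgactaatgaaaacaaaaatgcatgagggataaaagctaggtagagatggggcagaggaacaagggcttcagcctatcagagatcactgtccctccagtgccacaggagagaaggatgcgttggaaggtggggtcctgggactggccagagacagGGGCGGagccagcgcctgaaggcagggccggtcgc

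In the Ptgs2 window the C/EBP palindrome TTGCGCAA stood 69 bases before the listed start, and 0.183% of all windows of this length hold it. The other matches before the start were GGGCGG at base -170 and GCGTG at -98, which 35.7% and 32.4% of all windows hold. The second stretch holds CGTCA, which is TGACG on the other strand, overlapping the E-box CACGTG, which itself contains ACGTG on both strands. TGACG occurs in 20.8%, CACGTG in 7.15% and ACGTG in 19.6% of all windows. The Alox5 window had GGGCGG at base -35 and no other match. TGACGTCA, TTCNNNGAA and TATAAA, held by 1.79%, 8.3% and 13.6% of all windows, had no match in either window. A match describes letters and is not evidence of binding.

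Pla2g4a encodes the cytosolic phospholipase A2 that releases arachidonate after calcium and MAP kinase signals. The arrays measure the RNA of Pla2g4a and not the supply of arachidonate. Its log2 signal was 13.63 in NC and 13.73 in NC+IL6, against 13.83 in HC and 14.10 in HC+IL6. The 4 values lie close together, lowest in NC and highest in HC+IL6. The log2 ratio was 0.20 for HC over NC, 0.37 for HC+IL6 over NC+IL6, 0.10 for NC+IL6 over NC and 0.26 for HC+IL6 over HC.

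Ptgs2 showed the widest span of the members. Its log2 signal was 9.72 in NC, 11.08 in HC, 12.49 in NC+IL6 and 13.66 in HC+IL6, which are signals of 841.9, 2168, 5746 and 12944. Each condition lay more than 2-fold above the one before it in that order. Hypoxia gave a 2.58-fold higher signal without IL6 (log2 ratio 1.36) and a 2.25-fold higher signal with it (1.17). IL6 gave a 6.82-fold higher signal in normoxia (2.77) and a 5.97-fold higher signal in hypoxia (2.58). These were among the highest ratios of the arrays, since 16 genes of 9657 measured had a higher ratio for NC+IL6 over NC and 14 of 10261 for HC+IL6 over HC. For hypoxia, 119 genes of 9585 had a higher ratio without IL6 and 181 of 10302 with it.

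With both treatments, Ptgs2 was 15.4-fold above NC, a log2 ratio of 3.94. The log2 ratios of hypoxia alone and IL6 alone sum to 4.14. The hypoxia log2 ratio with IL6 was thus lower by 0.19 than without it. The SD between probe sets was 0.36 to 0.38 for a single hypoxia ratio and leaves out the variation between cultures. It cannot judge a difference of ratios, and whether the treatments add up was not tested. The second probe set of Ptgs2 had log2 signals of 4.69 in NC, 7.08 in HC, 8.89 in NC+IL6 and 10.70 in HC+IL6, in the same order. It lay under the floor in NC, where it gives only bounds, at least 0.43 for HC over NC and at least 2.24 for NC+IL6 over NC. Its log2 ratios without a bound were 1.81 for HC+IL6 over NC+IL6 and 3.62 for HC+IL6 over HC, both larger than those of the brightest probe set.

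Ptges, the inducible terminal synthase that turns prostaglandin H2 into prostaglandin E2, was measured near the floor. Its brightest probe set had log2 signals of 4.61 in NC, 6.31 in HC, 7.16 in NC+IL6 and 7.14 in HC+IL6. Both IL6 arrays lay above the floor and both others under it. The bounds for IL6 were at least 1.43-fold higher in normoxia and at least 1.47-fold higher in hypoxia, so that 2-fold was not reached and a larger difference cannot be read at this signal. Of the other 2 probe sets, the one reached 5.42 at most and was never above the floor, and the other passed it in HC+IL6 alone, at 6.20.

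Among the receptors, Ptger4 and Ptger2 bind prostaglandin E2 and Ptgir binds prostacyclin. All 3 couple to the G protein that activates adenylyl cyclase. Ptger4 had log2 signals of 10.77 in NC and 10.77 in NC+IL6, against 11.55 in HC and 11.48 in HC+IL6. Both hypoxia arrays were thus higher, by 1.72-fold without IL6 and 1.63-fold with it, and IL6 gave log2 ratios of 0.00 and -0.08. Its second probe set had 7.59, 7.00, 7.38 and 7.51 in NC, NC+IL6, HC and HC+IL6, and its hypoxia log2 ratios were -0.21 without IL6 and 0.51 with it. The probe sets of Ptger4 therefore disagree on the direction in the comparison without IL6.

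Ptgir had log2 signals of 6.10 in NC, 7.14 in HC, 7.90 in NC+IL6 and 8.29 in HC+IL6, with NC under the floor. With IL6 its signal was higher by at least 2.38-fold for NC+IL6 over NC and by 2.22-fold for HC+IL6 over HC. For hypoxia its signal without IL6 was higher by at least 1.41-fold, and with IL6 by 1.31-fold. Both IL6 calls were lost with a floor at a signal of 200, where the log2 ratios were 0.25 and 0.65. Ptger2 had 4.60, 6.36, 4.29 and 5.20 in NC, NC+IL6, HC and HC+IL6, and only NC+IL6 lay above the floor, at 6.36 against 6.30. Ptger2 was at least 1.16-fold lower for HC+IL6 over NC+IL6, and no fold is given for its other comparisons.

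Leukotriene synthesis begins with Alox5 and with Alox5ap, the membrane protein that presents arachidonate to it. Alox5, with 1 probe set, had log2 signals of 8.42 in NC+IL6, 9.43 in HC+IL6, 9.71 in NC and 10.85 in HC, which are signals of 343.1, 692.1, 837 and 1849. Both arrays with IL6 lay under both arrays without it. IL6 gave a 2.44-fold lower signal in normoxia (log2 ratio -1.29) and a 2.67-fold lower signal in hypoxia (-1.42). Of the genes measured, 40 of 9657 had a lower ratio for NC+IL6 over NC and 61 of 10261 for HC+IL6 over HC. Hypoxia gave a 2.21-fold higher signal without IL6 (1.14) and a 2.02-fold higher signal with it (1.01), and the latter was just under 2-fold after quantile normalization (0.89) and cyclic loess (0.96). In HC+IL6 the log2 signal was lower than in NC by 0.27. With 1 probe set and 1 array per condition, no spread is at hand to judge this difference. The hypoxia log2 ratio with IL6 was lower by 0.13 than without it.

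The other members of this branch stayed under 2-fold. Alox5ap had log2 signals of 13.45 in NC and 13.65 in NC+IL6, against 14.11 in HC and 14.03 in HC+IL6, with hypoxia log2 ratios of 0.67 and 0.37 and IL6 log2 ratios of 0.20 in normoxia and -0.09 in hypoxia. Both hypoxia arrays lay above both normoxia arrays. Lta4h, the hydrolase that makes leukotriene B4, had 11.27, 10.98, 11.31 and 11.18 in NC, NC+IL6, HC and HC+IL6. Its log2 ratios ran from -0.29 to 0.20, smaller in size than the SD between probe sets, which leaves out the variation between cultures. The other 2 probe sets of Lta4h were under the floor on all arrays, with log2 signals of 5.62 or less.

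**Figure D2:**
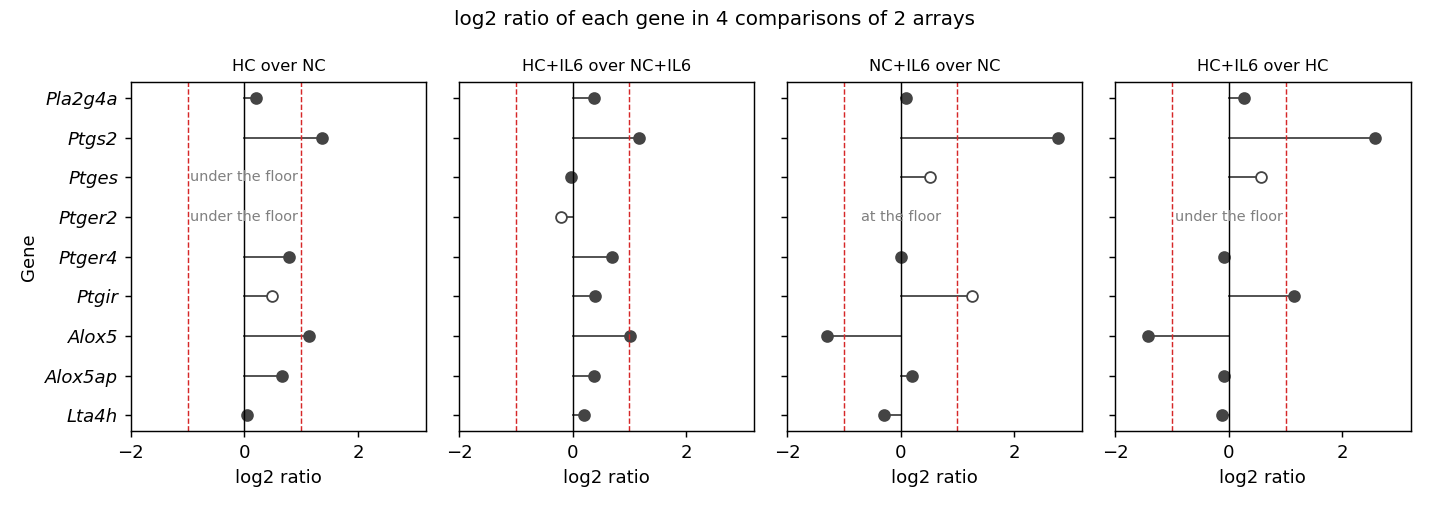
log2 ratio (horizontal axis) of each of the 9 measured genes in the 4 comparisons, each the ratio of 2 arrays, with dashed lines at 2-fold; open points are bounds against a signal raised to the floor. Ptgs2 passes 2-fold in all 4 panels, Alox5 lies to the right in both hypoxia panels and to the left in both IL6 panels, and Ptgir passes 2-fold in the IL6 panels.

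As a description only, since the genes were chosen with earlier results known, 2 of the 7 members measured in HC and NC were higher and 0 lower, where 3.71% of 9585 genes were higher and 1.09% lower. For HC+IL6 over NC+IL6, 2 of 9 were higher and 0 lower, where 3.13% of 10302 genes were higher and 1.49% lower. For NC+IL6 over NC, 2 of 9 were higher and 1 lower, where 3.43% of 9657 genes were higher and 1.22% lower. For HC+IL6 over HC, 2 of 8 were higher and 1 lower, where 2.41% of 10261 genes were higher and 2.16% lower. In the order of these comparisons, the members' median log2 ratio was 0.67, 0.37, 0.10 and 0.09, and the median of all genes was 0.04, 0.02, -0.05 and -0.04. The members' median for NC+IL6 over NC counts Ptger2 at -0.29, a sign set by the higher floor of NC. Before raising, the log2 ratio of Ptger2 there was 1.76. All 7 members measured in HC and NC had a log2 ratio above 0, where the median of all genes was also above 0. The lowest of them, Lta4h, was at that median of 0.04, and the second probe set of Ptger4 was at -0.21. After quantile normalization the median of all genes for HC over NC was -0.04. Over all probe sets, the median log2 level was 5.90 in HC and 5.86 in HC+IL6, above the 5.64 of NC and 5.55 of NC+IL6. After quantile normalization, which makes these distributions equal, Ptgs2 and Alox5 again passed 2-fold for HC over NC. The direction of calls over all genes depended on the scaling: of all calls, 77.4% were higher for HC over NC, against 56.3% after quantile normalization and 60.5% after cyclic loess. For HC+IL6 over NC+IL6 the share was 67.6%, against 45.7% and 45.8%.

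**Figure D3:**
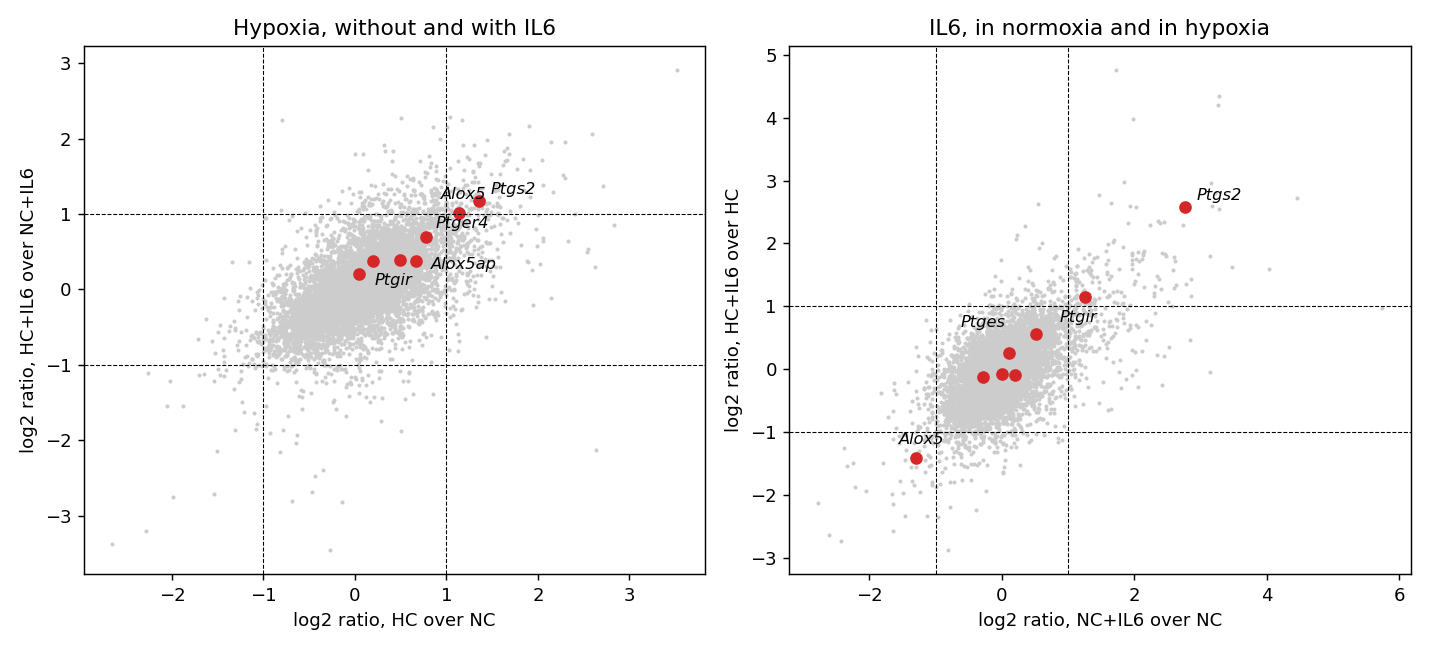
log2 ratio of all genes measured in both comparisons (grey) and of the members (red), for hypoxia without IL6 against hypoxia with IL6 (left) and for IL6 in normoxia against IL6 in hypoxia (right); each panel sets side by side comparisons that share no array. In the left panel Ptgs2 and Alox5 lie past 2-fold on both axes, and in the right panel Ptgs2 lies at 2.77 and 2.58 and Alox5 at -1.29 and -1.42.

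The other genes of the pathway were taken from a list of 60, of which 54 had a probe set and 34 lay above the floor on any array. All those that passed 2-fold in hypoxia had been placed by this list among the enzymes or receptors of the leukotriene branch. In each hypoxia comparison they included 3 of the 7 genes above the floor listed as lipoxygenases and leukotriene enzymes. Of these, Ltc4s and Mgst2 can make leukotriene C4. Ephx1 is an epoxide hydrolase other than Lta4h, counted there by the list alone, and its part in leukotriene synthesis was not tested. The roles were assigned when the list was made, and some of these calls were lost under other settings, as given below. In HC against NC, 4 of 28 measured genes were higher (Ltc4s, Mgst2, Ephx1 and Cysltr1) and 0 lower, with a median log2 ratio of 0.37. Of all genes measured there, 3.71% were higher and 1.09% lower. In HC+IL6 against NC+IL6, 4 of 32 were higher (Ltc4s, Mgst2, Ephx1 and Ltb4r1) and 0 lower, with a median of 0.24. Here 3.13% of all genes were higher and 1.49% lower. With IL6, 1 of 30 was higher (Pla2g5) and 4 lower (Hpgd, Ltc4s, Mgst2 and Mgst3) in normoxia, and 2 of 33 were higher (Pla2g5 and Ltb4r1) and 3 lower (Hpgd, Ltc4s and Mgst2) in hypoxia. The median was 0.04 in both IL6 comparisons. With IL6, 3.43% of all genes were higher and 1.22% lower in normoxia, and 2.41% and 2.16% in hypoxia. The IL6 and hypoxia comparisons share arrays, so that a low or a high array enters more than 1 of them.

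Ltc4s, the synthase that joins leukotriene A4 to glutathione, had the arrays in the same order as Alox5. Its log2 signal was 6.63 in NC+IL6, 7.92 in HC+IL6, 8.09 in NC and 10.26 in HC. It was 4.51-fold higher for HC over NC and 2.45-fold higher for HC+IL6 over NC+IL6, and 13 genes of 9585 had a higher ratio for HC over NC. IL6 gave a 2.75-fold lower signal in normoxia and a 5.04-fold lower signal in hypoxia. The hypoxia log2 ratio was lower by 0.88 with IL6 than without it, and with a floor at a signal of 200 the calls that use NC+IL6, whose signal was 99.05, were lost (0.28 and -0.44).

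Mgst2, a microsomal glutathione transferase that can also make leukotriene C4, had 9.69 in NC+IL6, 10.85 in HC+IL6, 10.86 in NC and 11.96 in HC. It was again lowest in NC+IL6 and highest in HC, while HC+IL6 and NC were nearly equal. It was higher in hypoxia by 2.14-fold without IL6 and 2.23-fold with it, and lower with IL6 by 2.26-fold in normoxia and 2.17-fold in hypoxia. Mgst3, its relative, had 12.46, 11.33, 12.99 and 12.01 in NC, NC+IL6, HC and HC+IL6, and was 2.19-fold lower with IL6 in normoxia and 1.98-fold lower in hypoxia. With the mean of its 2 probe sets, the first of these log2 ratios was -0.70. Ephx1, an epoxide hydrolase, had 8.05, 8.06, 9.39 and 9.20 in the same order of conditions and was 2.53-fold higher for HC over NC and 2.21-fold higher for HC+IL6 over NC+IL6, with IL6 log2 ratios of 0.00 and -0.19. After quantile normalization the second of these hypoxia log2 ratios was 0.99. Cotl1, a partner protein of 5-lipoxygenase, had 12.47, 12.50, 13.02 and 12.86.

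**Figure D4:**
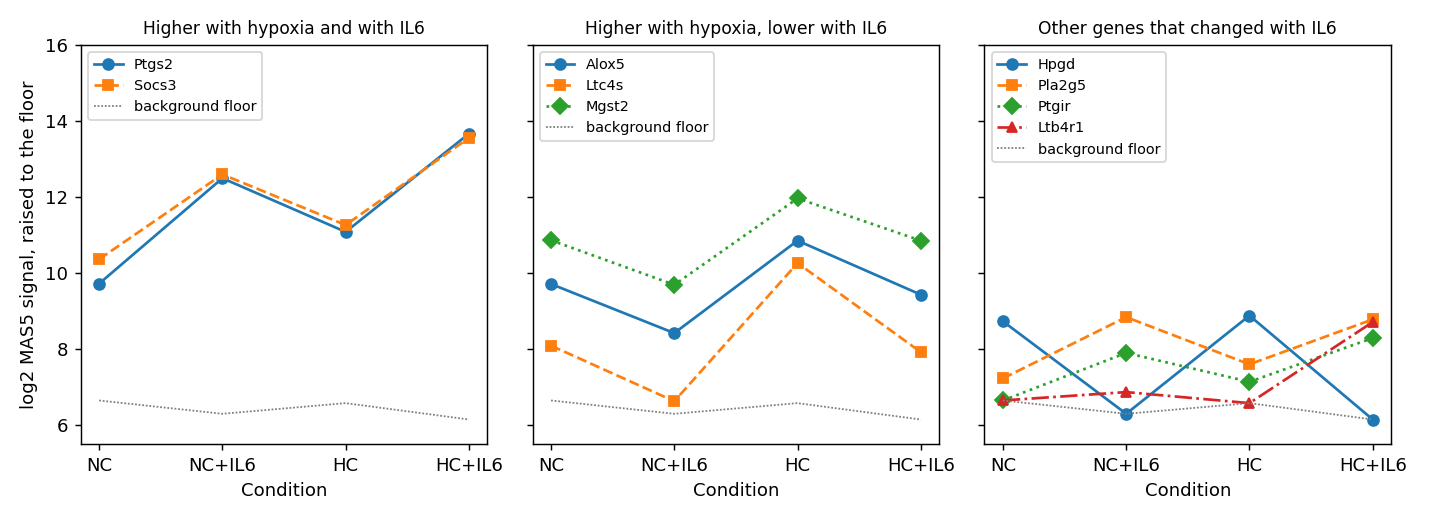
log2 MAS5 signal, raised to the floor (vertical axis), of genes over the 4 conditions, with 1 array per condition and the floor as a dotted grey line; the lines join conditions of the same gene. Ptgs2 and Socs3 are lowest in NC and highest in HC+IL6, Alox5, Ltc4s and Mgst2 are highest in HC and lowest in NC+IL6, and Hpgd is at the floor on both IL6 arrays.

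Among leukotriene receptors, Cysltr1, which binds cysteinyl leukotrienes, had 9.48 in NC and 9.85 in NC+IL6, against 10.50 in HC and 10.68 in HC+IL6. It was 2.03-fold higher for HC over NC, a call that was lost after quantile normalization (0.95) and cyclic loess (0.98), and its second probe set gave a log2 ratio of 0.30 there. Ltb4r1, the high-affinity receptor of leukotriene B4, had 2.79, 6.87, 4.82 and 8.71 in NC, NC+IL6, HC and HC+IL6 and lay above the floor only on the IL6 arrays. It was 3.58-fold higher for HC+IL6 over NC+IL6 and at least 4.4-fold higher for HC+IL6 over HC.

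Hpgd, the dehydrogenase that inactivates prostaglandins, had the lowest ratios with IL6 of all genes named here. Its log2 signal was 8.73 in NC and 8.88 in HC, and it lay under the floor at 4.75 in NC+IL6 and 5.91 in HC+IL6. The signal was at least 5.39-fold lower for NC+IL6 over NC and at least 6.64-fold lower for HC+IL6 over HC. Of the genes measured, 2 of 9657 and 1 of 10261 had a lower ratio. The hypoxia log2 ratio was 0.15 without IL6. The second probe set of Hpgd was under the floor on all arrays, at 1.99 to 6.25, and gives no ratio. With the mean of both probe sets, the log2 ratio was -1.19 for NC+IL6 over NC and -0.67 for HC+IL6 over HC, so that the second call was lost.

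Of the listed phospholipases, Pla2g5, a secreted form, had 7.23 in NC, 7.60 in HC, 8.84 in NC+IL6 and 8.78 in HC+IL6 and was higher with IL6 by 3.06-fold in normoxia and 2.26-fold in hypoxia. None of the 6 listed terminal synthases above the floor on any array passed 2-fold. Cbr1, a carbonyl reductase that acts on prostaglandin E2, had 9.88, 9.95, 9.70 and 9.92 in NC, NC+IL6, HC and HC+IL6. Ptges2, a second prostaglandin E synthase, had 9.29, 9.10, 8.31 and 8.49, and its log2 ratio for HC over NC was -0.98, past 2-fold after quantile normalization (-1.15) and cyclic loess (-1.12). The transporter Abcc4, which exports prostaglandins, had 11.05, 10.91, 11.36 and 11.07. Anxa1, an inhibitor of phospholipase A2, had 13.68, 13.56, 13.94 and 13.98, and with the mean of its probe sets its log2 ratio for HC+IL6 over HC was -1.69. Of the 6 other prostanoid receptors, Tbxa2r alone lay above the floor, in NC only, at 6.73.

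Transcription factors and RNA-binding proteins known to act on Ptgs2 were described from a list of 20, of which 17 had a probe set, all above the floor on all arrays. In HC against NC, 2 were higher, and in HC+IL6 against NC+IL6 none was, with Zfp36l1 just under 2-fold. With IL6, 3 were higher in normoxia and 1 in hypoxia, and 0 were lower in any comparison. Of all genes measured, 3.71% were higher for HC over NC and 3.13% for HC+IL6 over NC+IL6. With IL6 the share was 3.43% in normoxia and 2.41% in hypoxia. A count of 0 or 1 among 17 genes is close to these shares. The medians were 0.32, 0.08, 0.05 and -0.04 for HC over NC, HC+IL6 over NC+IL6, NC+IL6 over NC and HC+IL6 over HC.

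Egr1, an immediate early factor, had 10.37 in NC and 12.42 in NC+IL6, against 13.00 in HC and 12.72 in HC+IL6. It was 6.17-fold higher for HC over NC and 4.15-fold higher for NC+IL6 over NC, and its log2 ratios in the comparisons without NC were 0.29 and -0.28. Zfp36, which destabilizes mRNAs with AU-rich elements, had 9.29, 10.94, 9.84 and 11.32 in NC, NC+IL6, HC and HC+IL6 and was higher with IL6 by 3.13-fold in normoxia and 2.78-fold in hypoxia. Its relative Zfp36l1 had 8.46, 8.58, 10.01 and 9.58 and was 2.93-fold higher for HC over NC. For HC+IL6 over NC+IL6 it lay just under 2-fold, at signals of 766 and 383.6. The second probe set of Zfp36l1 gave log2 ratios of 1.31 for HC over NC and 0.38 for HC+IL6 over NC+IL6. Cebpd, a C/EBP factor, was 2.25-fold higher for NC+IL6 over NC at 11.09 and 9.92, while its second probe set gave a log2 ratio of 0.09. Cebpb, its relative, had 12.71, 13.22, 12.87 and 13.26.

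Genes with the profile nearest to that of a member were found among 10443 genes above the floor on any array, by the Euclidean distance between log2 signals, raised to the floor and centred on their mean over the 4 arrays. Nearest to Ptgs2 were Socs3, the feedback inhibitor of IL6 signalling, at a distance of 0.55, Id1 at 0.60 and Ambp at 0.66, where the median gene lay at 3.05. Socs3 had 10.36 in NC and 12.59 in NC+IL6, against 11.26 in HC and 13.55 in HC+IL6. Nearest to Alox5 were Raph1 at 0.12, Bmf at 0.19 and Ankrd44 at 0.22, with the median gene at 1.70. Nearest to Ptgir were Gstp1 and Slc35a2, both at 0.13, and the glucose transporter Slc2a1 at 0.17, with the median at 1.41, and these distances take Ptgir in NC at the floor of 6.65 in place of its 6.10, so that they would differ for another floor. These distances rest on 4 arrays and describe likeness only.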

How the data were processed

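The authors extracted total RNA with Trizol, hybridized biotin-labelled cRNA to Affymetrix mouse arrays and deposited log2 MAS5 signals of 45101 probe sets on 4 arrays, 1 per condition. For MAS5 the sources used here name no version. They scaled each array to a mean signal of 500 with 2% trimmed from both tails, which hides a shift of all RNA together, and signals of 1 or less are listed as 0.

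Log2 ratios were taken in Python 3.11.15 (pandas 2.3.3, numpy 2.4.6, scipy 1.17.1) and plotted with matplotlib 3.10.9. Of the probe sets, 34958 carried 1 symbol, 932 several (left out) and 9211 were not listed in the annotation. The floor used 70 of 74 listed genes of other tissues. The calculation of the fold rule was run on simulated arrays, with shifts larger than 2-fold in bright genes. That run does not cover signals near the floor or the variation between cultures.

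Named were all members, genes of the other lists that passed 2-fold (at most 8 per list), the gene with the highest signal in each role (to choose names only), and the 3 nearest profiles. Ptges2 and the cell type markers were added after their values were seen. Members and lists were chosen with earlier results of these data known. Markers were of macrophages, mast cells, megakaryocytes, neutrophils, B cells, T cells, fibroblasts, endothelium and epithelium. Alternatives were quantile normalization and cyclic loess (limma 3.58.1, R 4.3.3), other floors and the mean over probe sets.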

Additional observations from a re-analysis of the deposited data

How the results depend on the processing

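No member that passed 2-fold turned its direction under any alternative run, but several counts moved. Members higher for HC+IL6 over NC+IL6 numbered 1 instead of 2 after quantile normalization, after cyclic loess and with the background median added to every signal, where Alox5 stood at 0.89, 0.96 and just under the threshold. Without a floor, 4 members were higher for HC over NC (Ptges and Ptgir added) and 1 was lower for HC+IL6 over NC+IL6 (Ptger2). Without a floor and with the background median added, 4 were higher for NC+IL6 over NC (Ptges and Ptger2 added). With a floor at a signal of 200, chosen after seeing the data, 1 was higher with IL6 in normoxia and 1 in hypoxia, since Ptgir dropped out. The difference between hypoxia log2 ratios with and without IL6 was -0.10 for Ptgir and -0.65 without a floor and with the 90th percentile as the floor. By construction, these settings change how signals near the floor are read.

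With the 90th percentile as the floor, Ptges in NC+IL6 over NC (1.38) and Ptgir in HC over NC (1.04) also passed 2-fold. Over all genes, the 356 higher and 104 lower in HC over NC ran from 235 to 2862 and from 88 to 2096 over the alternatives, lowest with a floor at 200 and highest without a floor. For HC+IL6 over NC+IL6, 322 and 154 ran from 187 to 2812 and 110 to 1910, for NC+IL6 over NC, 331 and 118 ran from 243 to 2418 and 70 to 2455, and for HC+IL6 over HC, 247 and 222 ran from 176 to 2417 and 134 to 2368. With the mean of probe sets, the log2 ratio of Hpgd in HC+IL6 over HC was -0.67, of Cysltr1 in HC over NC 0.66, of Fosl2 in HC over NC 0.64 and of Cebpd in NC+IL6 over NC 0.63. After quantile normalization, Ephx1 in HC+IL6 over NC+IL6 was 0.99 and Cysltr1 in HC over NC 0.95. With a floor at a signal of 200, the bounds shrank for Hpgd to -1.09 in NC+IL6 over NC and -1.23 in HC+IL6 over HC, and Ltb4r1 was at 1.07 for HC+IL6 over HC. Signals under the floor have no order. No paired analysis was possible because each condition has 1 array.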

Other observations

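The receptors Ptger2, Ptger4 and Ptgir raise cyclic AMP, and the machinery for it was described from a list of 19 genes of the stimulatory G protein, adenylyl cyclases, protein kinase A and phosphodiesterases, of which 17 lay above the floor on any array. Prkar2b, a regulatory subunit of protein kinase A, was 2.3-fold higher for HC+IL6 over NC+IL6, at log2 signals of 8.95 and 7.74, and its other 2 probe sets gave log2 ratios of 1.22 and 1.59. Pde4b, a phosphodiesterase that degrades cyclic AMP, was 2.08-fold higher for NC+IL6 over NC, at 8.06 and 7.01, and 2 further probe sets gave log2 ratios of 0.48 and 0.01. With a floor at a signal of 200 its log2 ratio was 0.42, under 2-fold. No other gene of the list passed 2-fold. Of all genes measured, 3.13% were higher for HC+IL6 over NC+IL6 and 3.43% for NC+IL6 over NC. Prkar1a, another regulatory subunit, had 12.83 in NC and 13.00 in NC+IL6, against 12.48 in HC and 12.74 in HC+IL6. The list's median log2 ratio was 0.32 for HC over NC, 0.18 for HC+IL6 over NC+IL6, -0.22 for NC+IL6 over NC and -0.17 for HC+IL6 over HC.

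Of 12 genes known to respond to cyclic AMP, 11 had a probe set and 8 lay above the floor on any array. In HC against NC, Fosl2, an AP-1 factor, was 2.29-fold higher (a log2 ratio of 0.64 with the mean of its probe sets) and Dusp1, a phosphatase of MAP kinases, 2.18-fold higher. In NC+IL6 against NC none passed 2-fold with the main floor. Il10, a cytokine that restrains inflammation, had 5.20, 7.19, 4.88 and 9.20 in NC, NC+IL6, HC and HC+IL6. It was 4.04-fold higher for HC+IL6 over NC+IL6 and at least 6.15-fold higher for HC+IL6 over HC. For NC+IL6 over NC its log2 ratio was at least 0.54, since NC lay under the floor. It passed 2-fold there with the 90th percentile as the floor (1.41), with the background median added (1.57) and without a floor (1.98). Fos, an immediate early factor, had 12.31, 12.14, 12.84 and 12.00. The median log2 ratio of the list was 0.53, 0.34, 0.16 and -0.04 in the 4 comparisons, in the order given above. In the same order, 3.71%, 3.13%, 3.43% and 2.41% of all genes measured were higher.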
